A study of Mus musculus with 9 samples.

Results

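This is an account of open chromatin at 45 genes of TGF-beta and BMP signalling in mouse mesenchymal progenitor cells (MPCs) with and without the chromatin remodeller ATRX. The members are the consensus regions of open chromatin whose nearest protein-coding start site belonged to a listed gene, 658 of 97338 regions in all. They fell to 44 of the 45 genes, and *Gdf10* had none. The list was fixed by gene name and uses no measured value.

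Open chromatin was measured by ATAC-seq, in which a transposase cuts accessible DNA and places rich in cut fragments are listed as peaks. The cells were C3H/10T1/2, an established mouse line used as a model of progenitors that can form fat, bone, cartilage and muscle. The *Atrx* wild type (WT) had 3 libraries, and so did B10 and G7, which are clones with *Atrx* knocked out (KO). Each KO line was 1 clone made with its own CRISPR-Cas9 guide. Within a line, the knockout and the clone cannot be told apart. Per the study, the WT was 1 isogenic control line given the Cas9 vector without a guide. Differences shared by both clones cannot be told apart from traits of that WT line. The labels do not say whether the libraries of a line came from separate cultures. All p-values therefore measure only the spread between these libraries. The peak lists hold no measure of ATRX, and the knockout was not checked here.

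TGF-beta family ligands bind pairs of type I and type II receptor kinases on the cell surface, which phosphorylate SMAD proteins that enter the nucleus with SMAD4 and bind DNA. TGF-beta and activin signals run mainly through SMAD2 and SMAD3, and BMP signals through SMAD1, SMAD5 and SMAD9, with the *Id* genes as classic direct targets. Secreted antagonists such as noggin and gremlin trap ligands, and SMAD6, SMAD7 and their partners act inside the cell. In mesenchymal progenitors these signals are known to steer the choice between cartilage, bone and fat.

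The 9 libraries held from 76385 to 88535 peaks. The lists carry no read counts, so depth is unknown and a missing peak means not detected. The strength of a region in a library is given as a percentile rank: the rank of its highest peak by −log10 q among all peaks of that library, with 100 the highest. Of the mesenchymal markers, 8 of 9 had a peak at their start site in all 9 libraries (*Thy1* had none). Start sites of the epithelial, blood and pluripotent markers held no peak in all 9 libraries, although *Esrp1* had one in 8, *Spi1* in 5 and *Pou5f1* in 4, and the endothelial genes *Pecam1* and *Erg* had one in all 9. Replicate 1 of each line stood apart from replicates 2 and 3, so the main counts are also given without it. The median rank shifted by whole chromosomes in the clones, for instance by 4.92 on chromosome 13 in B10 and by -3.90 on chromosome 2 in G7. The part of such shifts in any 1 region was not tested. For regions named by the rules at the end, ranks centred by chromosome are given beside the calls that they end. Calls at other regions were not followed through the alternatives. These are *Bmp6* -1.7 kb, *Bmp7* +108.3 kb, *Id1* +2.1 kb and those named after their values were seen.

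Regions are named by gene and by the distance in kb from the edge of the region to the nearest protein-coding start site of that gene, negative upstream and positive downstream, and "start" marks a region over that site. Nearness to a start site does not show that a region acts on that gene. The sequences below, read from the GRCm38.p6 genome of RefSeq, which is the mm10 assembly, are the 30 bases around each match to the BMP response element in a member region, a composite site that SMAD proteins are known to bind (GGCGCC and, after 5 bases, GTCT). They are shown because this element was the rarest of the motifs searched. Capitals mark the match with its 5 spacer bases, and each is written along the strand on which it reads in that direction.
Grem1 start: gctgcccGGCGCCTGCAGGTCTgctgtatg
Id1 +2.1 kb: gtacggaGGCGCCTGGCTGTCTgggcccgc
Id2 +2.9 kb: tttgggtGGCGCCTGCTAGTCTgccttggc
Id2 -1.4 kb: cgcgcctGGCGCCAGAGAGTCTgctccggg
Id3 -2.3 kb: ccaccctGGCGCCAGGCTGTCTggggctga
Id3 start: cctccctGGCGCCGGCCAGTCTgcggcatc
Skil start: cggccagGGCGCCCCCAGGTCTggcccgtc

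The *Grem1* site lay 903 bases after the start site at chr2:113757729-113757743 and the *Skil* site 499 bases before it at chr3:31094559-31094573. The *Id1* site stood 3220 bases after the start (chr2:152739471-152739485). *Id2* had 1 site 1728 bases before a protein-coding start (chr12:25098854-25098868) and 1 site 3029 bases after another (chr12:25093044-25093058). Each distance is from the nearest protein-coding start site of the gene. *Id3* had 1 site 2957 bases before the start (chr4:136140540-136140554) and 1 site 1296 bases after it (chr4:136144793-136144807). None of the 7 sites lay in an annotated exon. In a window of 300 bases around the summit, the element was found on either strand in 26 of 97338 consensus regions (0.0267%) and in 3 of the 658 member regions (0.456%), namely *Grem1* start, *Id2* -1.4 kb and *Id3* -2.3 kb. A search of whole regions, chosen after seeing the data, found it in 85 regions (0.0873%), 7 of them members. The GGCGCC part alone was held by 5.69% of all windows and 6.38% of member windows. The SMAD palindrome GTCTAGAC was in 0.300% of all windows and in 1 member window, that of the inhibitor *Smad6*, where it overlapped the annotated start at chr9:64022056-64022063. That palindrome is shown here with its flanks.
Smad6 start: atcatatgccaGTCTAGACactttggcggc
AP-1 sites (TGAGTCA or TGACTCA) were in 144 member windows (21.9%) and in 20.5% of all. These matches are descriptions of letters and not of bound factors. Of the 8 regions with a BMP element or SMAD palindrome, 7 did not pass the test in both clones, and *Grem1* start was lower in both.

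Presence and strength were compared across the members as a whole before the single genes. A region counted as gained in a clone when 2 or 3 of its libraries and 0 WT libraries held a peak, and as lost in the reverse case, with no test. In B10, 70 member regions were gained (10.6%, against 10.4% of all consensus regions) and 41 were lost (6.23%, against 7.58%). In G7, 28 were gained (4.26%, against 5.69%) and 41 lost (6.23%, against 7.42%). Gained in both clones were 15 regions (2.28%, against 2.97%) and lost in both were 20 (3.04%, against 4.36%). These shares lay near or below the background. With the replicate number as a block, where a region counts when 2 or 3 clone libraries differ from the WT library of their own number and none in the opposite way, 44 were gained in G7, and 23 were gained and 30 lost in both clones, and replicates 2 and 3 alone gave 18 and 22 in both. Without WT replicate 1 the gains in both clones numbered 35, and without WT replicate 2 or 3 the losses numbered 8 and 7. Without G7 replicate 2 or 3 the gains in both numbered 10 each time. Of the single clones, G7 gains fell to 16 and 18 without G7 replicate 2 or 3 and rose to 53 without WT replicate 1. For B10, 45 and 46 gains were left when its replicate 1 or 2 was dropped. Losses without WT replicate 2 or 3 were 14 and 15 in B10 and 19 and 17 in G7. The rule sets the direction of these moves. Dropping a library that must hold a peak can only lower a count, and dropping one that must lack it can only raise it.

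Strength was tested with limma on the 47431 regions with a peak in all 9 libraries, 326 of them members (49.5% of the member regions, against 48.7% of all regions). The Benjamini-Hochberg adjustment ran over all 47431. In B10, 40 member regions were higher than in WT (12.3%, against 11.0% of all tested) and 19 lower (5.83%, against 5.37%). In G7, 11 were higher (3.37%, against 5.39%) and 19 lower (5.83%, against 4.82%). In both clones, which share the WT libraries, 8 were higher (2.45%, against 3.81%) and 7 lower (2.15%, against 1.66%). The median difference over the 326 was 1.2 rank points in B10 and -0.115 in G7, beside 0.702 and -0.035 over all regions tested. The replicate number as a block pairs libraries that deviate together. With it, 72 member regions were higher and 43 lower in B10, and 28 higher and 39 lower in G7. In both clones, 19 were higher and 20 lower. Calls over all 47431 regions rose too, from 5226 to 10161 higher and from 2548 to 5757 lower in B10. In G7 they rose from 2558 to 6245 higher and from 2284 to 6338 lower. Replicates 2 and 3 alone, which tested 362 member regions of 52539, gave 69 and 37, 24 and 35, and 17 and 15. Over those 52539 regions, 8714 were higher and 5011 lower in B10, and 5042 and 4535 in G7. The split of calls also moved with the scale. B10 had 32 higher and 27 lower with ranks centred by chromosome, 31 and 24 with equal numbers of peaks, and 16 and 12 on log2 fold enrichment. G7 had 10 and 8, 9 and 11, and 3 and 3 in the same order. Equal numbers of peaks left 313 member regions of 46067. Over all regions tested, B10 had 3221 and 3695, 4085 and 3612, and 1648 and 1425 in that order. G7 had 2414 and 1479, 2643 and 1866, and 731 and 569. Of the 43 differences called at the named regions, 27 were lost on log2 fold enrichment, and not every such loss is repeated below.

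**Figure D1:**
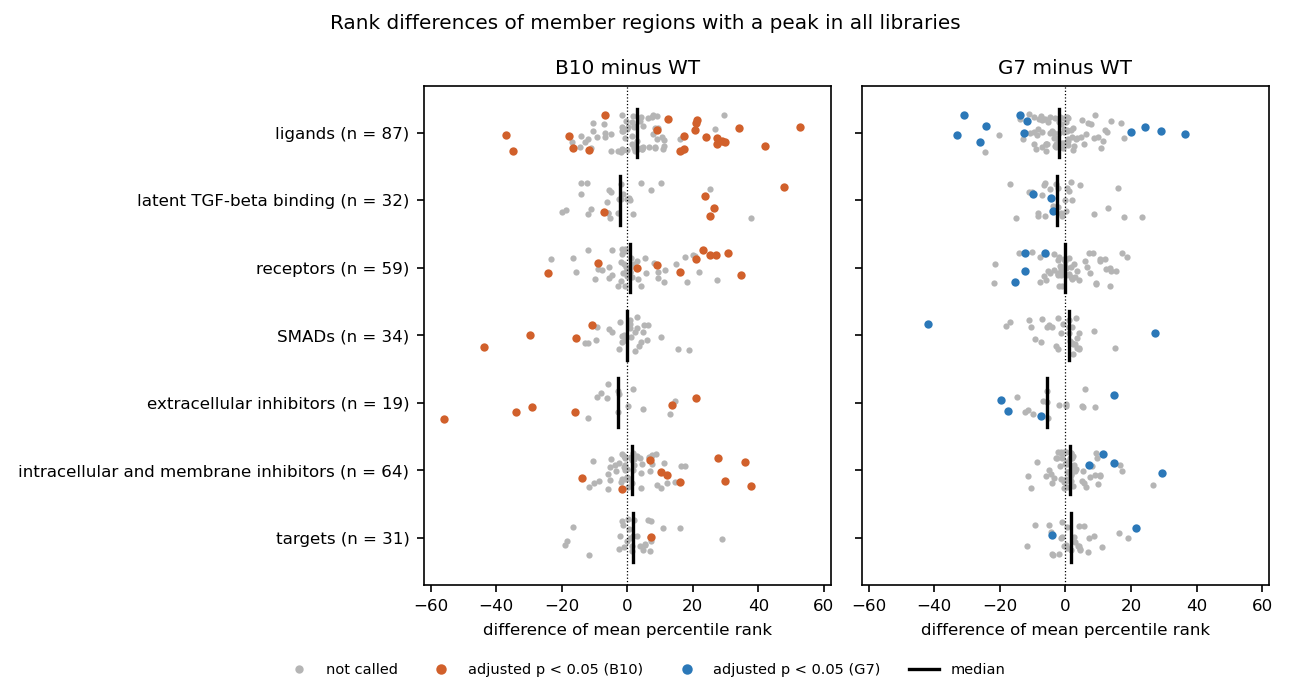
Difference of the mean percentile rank of each clone from WT (horizontal axis, rank points) for the 326 member regions with a peak in all 9 libraries, by role of the gene. Each point is 1 region, coloured where limma's adjusted p was under 0.05, and the bar is the median of the role; the median of the ligands was 3.11 in B10 and -1.99 in G7.

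Start sites came first among the named regions. A region over a protein-coding start site, within 1 kb on either side, was present in all 9 libraries for 37 of the 45 genes (82.2%), against 53.3% of all protein-coding genes. The mean rank of these 37 ran from 39.6 at *Inhbb* to 99.5 at *Tgfbr1*, with a median of 88.0. *Nog*, the gene of noggin, had a start-site region in G7 only, at ranks of 26.7, 20.8 and 42.9, and none in any WT or B10 library. No start-site region was found for *Bmp2*, *Bmp4*, *Bmp6*, *Bmp7*, *Gdf6*, *Gdf10* and *Bmpr1b*, 6 of them ligand genes. *Bmp4* had a region 2.1 kb downstream at the start of another annotated transcript, at ranks from 87.4 to 94.2 in the 9 libraries. *Bmp6* had a region 1.7 kb upstream in all 9, at ranks of 17.8, 35.5 and 24.2 in WT, 49.1, 43.5 and 56.5 in B10 and 46.2, 42.2 and 42.2 in G7. It was higher in B10 by 23.9 ± 5.82 (adjusted p = 0.0223), with 17.7 ± 5.82 in G7 (adjusted p = 0.086), while the region of *Bmp2* 1.6 kb upstream had a peak in 5 libraries, 2 of WT and 3 of B10, and none of G7. For *Gdf6* the nearest region was 2.8 kb upstream in 6 libraries, for *Bmpr1b* 68.1 kb and for *Bmp7* 108.3 kb away. *Bmp7* +108.3 kb stood at 56.2, 58 and 63 in WT, 47, 49 and 39.2 in B10 and 30.4, 32.7 and 21.8 in G7, lower by -30.8 ± 4.99 in G7 (adjusted p = 0.00587) and with -14.0 ± 4.99 in B10 (adjusted p = 0.0865).

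**Figure D2:**
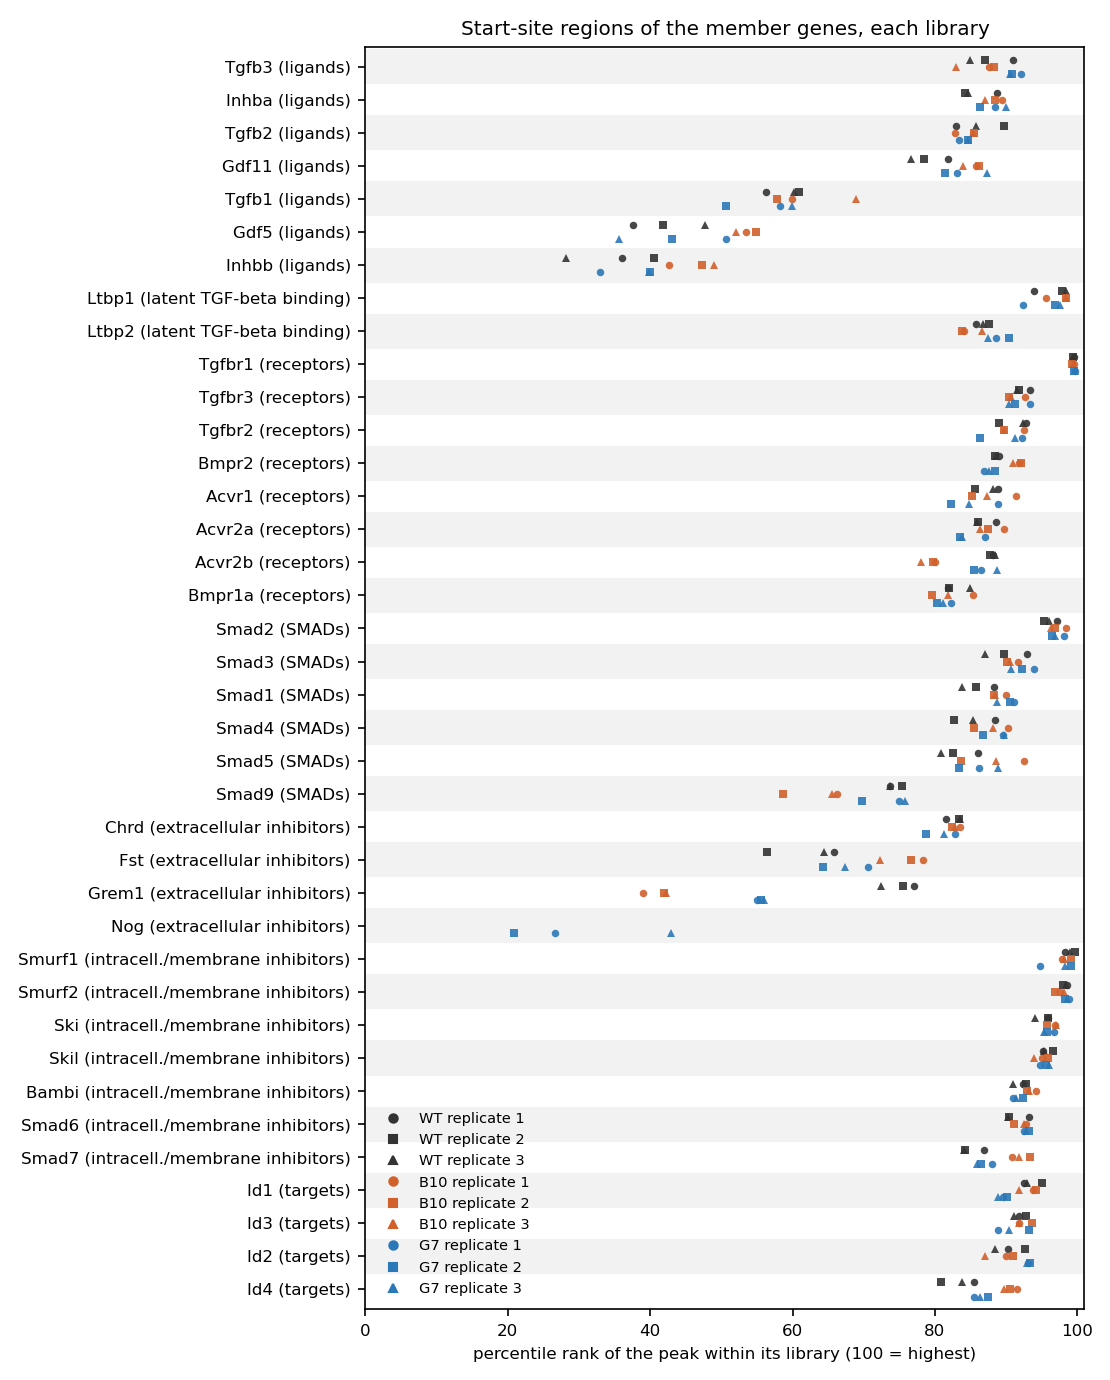
Percentile rank within its library (horizontal axis, 100 the highest) of the start-site region of each member gene that has one, by role and then by mean rank. Each point is 1 of the 9 libraries; the *Grem1* points of B10 lie between 39.0 and 42.2 and those of WT between 72.4 and 77.1, and *Nog* has points in G7 only.

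Over all regions tested, 11.0% were called higher and 5.37% lower in B10, and 5.39% and 4.82% in G7. Taking the strongest start-site region of each of the 37 genes, limma called 4 higher and 3 lower in B10, and 0 higher and 2 lower in G7. With the replicate block no such call was lost and 7 were added, all higher, namely *Gdf11* (6.28, adjusted p = 0.0247), *Smad1* (2.94, adjusted p = 0.0281) and *Smad5* (5.1, adjusted p = 0.0404) in B10 and *Smad1* (4.11, adjusted p = 0.00779), *Smad4* (3.18, adjusted p = 0.0339), *Id2* (2.7, adjusted p = 0.0391) and *Tgfb3* (3.54, adjusted p = 0.0448) in G7. The higher ones in B10 were *Fst* (13.5 ± 3.62 rank points, difference ± SE, limma with Benjamini-Hochberg adjustment as throughout, adjusted p = 0.032), *Id4* (7.18 ± 1.35, adjusted p = 0.00727), *Smad7* (6.92 ± 1.19, adjusted p = 0.00494) and *Bmpr2* (2.96 ± 0.81, adjusted p = 0.0357). With ranks centred by chromosome all 4 fell short, with adjusted p up to 0.922 for *Id4* (its 17 alternatives ran from 0.0017 to 0.922). *Acvr2b*, a type II activin receptor, was lower in B10 by -8.87 ± 1.31 (adjusted p = 0.0025, with its 17 alternatives from 0.000521 to 0.616, the last on log2 fold enrichment) and *Smad9* by -10.7 ± 3.19 (adjusted p = 0.0473). The *Smad9* call was lost whichever 1 of the 9 libraries was left out, with adjusted p from 0.0523 to 0.139. *Fst* and *Bmpr2* each lost their call without any 1 of 6 libraries (WT replicates 2 and 3, the 3 B10 replicates and G7 replicate 3), with adjusted p from 0.0525 to 0.102 and from 0.0555 to 0.119. The remaining start site, *Grem1*, was lower in both clones.

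Among the ligands, 183 regions belonged to 12 of 13 genes and 87 had a peak in all 9 libraries. In B10, 16 of the 87 were higher (18.4%, against 11.0% of all regions tested) and 6 lower (6.9%, against 5.37%), and in G7, 4 were higher (4.6%, against 5.39%) and 7 lower (8.05%, against 4.82%). The shares of the other roles below are to be read against these same background shares. In both clones, 4 were higher (4.6%, against 3.81% of all tested) and 3 lower (3.45%, against 1.66%). B10 was above G7 at 10 of the ligand regions (11.5%, against 4.21%) and below it at 1 (1.15%, against 2.39%). Of the 16 higher in B10, 5 belonged to *Tgfb2*, 4 to *Bmp6* and 3 to *Inhba*. Of the 6 lower, 3 belonged to *Tgfb2*, 2 to *Gdf6* and 1 to *Gdf5*. *Bmp6* and *Inhba* lie on chromosome 13, where the median rank shifted by 4.92 in B10, and its part in these calls was not tested. The median distance to the start site was 120 kb, against 20.9 kb over all consensus regions, and 57.4% of the ligand regions were intergenic, against 35.4%.

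*Tgfb2*, one of the TGF-beta ligand genes, carried 39 regions, 22 of them in all 9 libraries, from 15.9 kb upstream to 291.3 kb downstream. The region at the start site stood between 82.8 and 89.7 in all libraries and did not pass the test in either clone (adjusted p = 0.587 and 0.528). Within the gene, *Tgfb2* +64.1 kb (chr1:186641168-186641619, intron) had the largest rise of any member region in B10. Its ranks were 38.3, 3.12 and 20.5 in WT, 78.6, 73.2 and 68.4 in B10, and 64.3, 55.3 and 51.9 in G7. The lines did not overlap, with differences of 52.8 ± 8.05 in B10 (adjusted p = 0.00284) and 36.6 ± 8.05 in G7 (adjusted p = 0.0209). The G7 call was lost without WT replicate 3 or any 1 of the G7 libraries, with adjusted p from 0.0535 to 0.0648. *Tgfb2* +29.0 kb, a region at the start of a transcript of the gene that is not protein-coding, rose by 29.7 ± 5.01 and 20.1 ± 5.01 (adjusted p = 0.0045 and 0.0339). It was named after its values were seen, as was *Tgfb2* +226.6 kb, which fell in both clones by 11.6 rank points (adjusted p = 0.0191 and 0.0271).

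Regions farther downstream differed in direction. *Tgfb2* +189.1 kb (chr1:186515116-186516568, intron of the long non-coding gene A730004F24Rik) stood at 58.5, 73.4 and 74.2 in WT, at 29.4, 33.6 and 31.8 in B10, and at 14.0, 49.6 and 43.5 in G7. It was lower by -37.1 ± 8.69 in B10 (adjusted p = 0.0188) and by -33.0 ± 8.69 in G7 (adjusted p = 0.0411). The B10 call was lost without WT replicate 2 or 3 or any 1 B10 library (adjusted p from 0.0523 to 0.0721), and the G7 call without 7 of the 9 libraries, all but WT replicate 1 and G7 replicate 2 (adjusted p from 0.0555 to 0.135). Ranks centred by chromosome also ended the G7 call (-29.4, adjusted p = 0.0633), as did log2 fold enrichment (adjusted p = 0.142). At *Tgfb2* +138.0 kb the clones parted, with ranks of 34.2, 26.0 and 23.8 in WT, 51.5, 44.6 and 49.6 in B10, and 13.0, 25.3 and 20.5 in G7. B10 was higher than WT by 20.6 ± 5.41 (adjusted p = 0.03, lost without WT replicate 2, WT replicate 3 or any 1 B10 library, with adjusted p from 0.0581 to 0.105), as at +64.1 kb, and G7 differed from WT by -8.39 ± 5.41 (adjusted p = 0.368). The difference of B10 from G7 was 28.9 ± 5.41 (adjusted p = 0.0143), and the call was lost without B10 replicate 1, B10 replicate 3 or G7 replicate 3 (adjusted p from 0.0512 to 0.056). On log2 fold enrichment it was lost too (adjusted p = 0.0567).

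**Figure D3:**
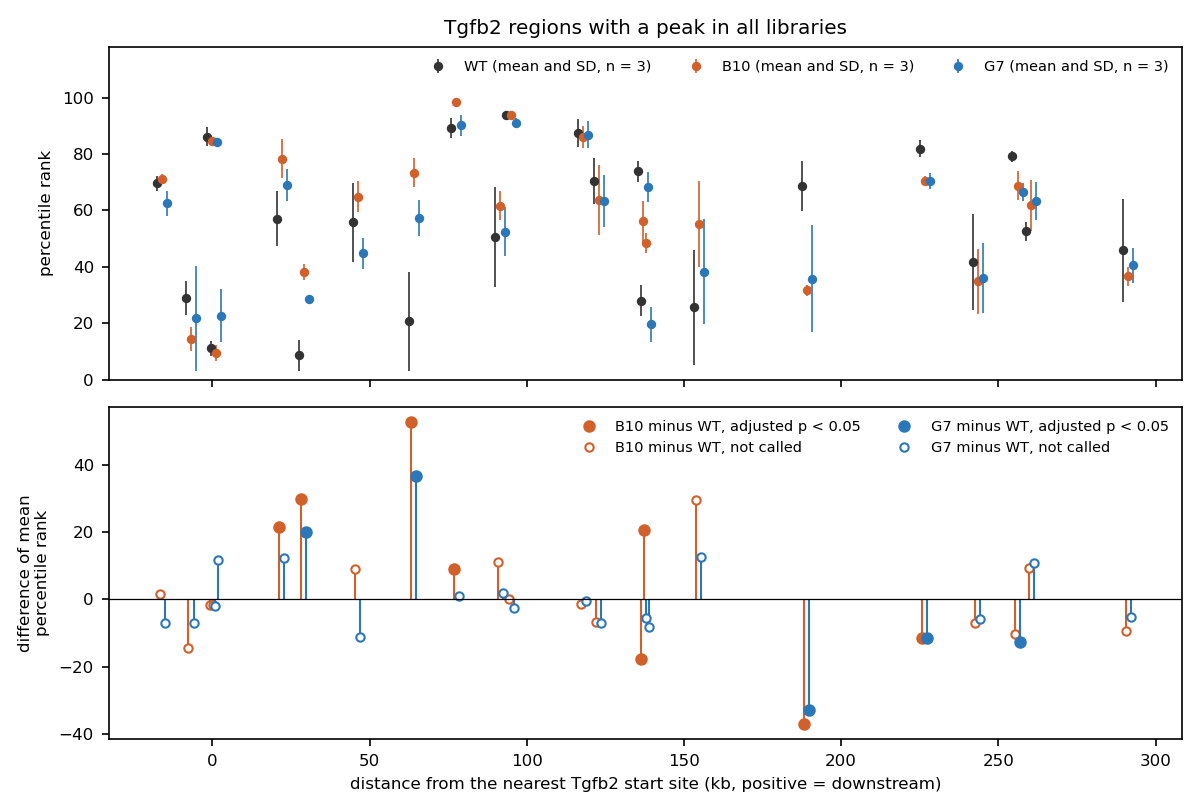
The 22 *Tgfb2* regions with a peak in all 9 libraries by distance from the nearest *Tgfb2* start site (horizontal axis, kb). The upper panel gives the percentile rank of each line (mean and SD, n = 3) and the lower panel the difference of each clone from WT, filled where adjusted p was under 0.05; the tallest pair is the region at +64.1 kb and the deepest that at +189.1 kb.

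*Bmp6*, a BMP ligand gene, had 16 regions, of which *Bmp6* +56.0 kb (chr13:38450428-38451515, intron of the gene) was higher in both clones. Its ranks were 43.4, 40.1 and 25.8 in WT, 76.4, 79.5 and 79.0 in B10, and 61.9, 68.8 and 66.0 in G7. The differences were 41.9 ± 4.91 (adjusted p = 0.000845) and 29.1 ± 4.91 (adjusted p = 0.00687), and both calls held whichever library was left out. On log2 fold enrichment the G7 call was just lost (adjusted p = 0.0601, the highest of 17 alternatives, which began at 0.00129). In the same gene, *Bmp6* +54.0 kb had peaks in WT replicates 2 and 3 at ranks of 12.8 and 14.6 and in no other library, which counts as lost in both clones but not without WT replicate 2 or 3. *Bmp6* +9.9 kb counted as gained, though not without B10 replicate 2 or 3, with ranks of 13.4 and 28.6 in B10 replicates 2 and 3 and 37.4, 44.8 and 38.3 in G7.

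*Gdf5*, a ligand gene of joint and cartilage development, had 2 regions. *Gdf5* -3.8 kb (chr2:155949144-155949977, intergenic) fell from ranks of 66.2, 75.1 and 72.4 in WT to 28.3, 44.1 and 36.6 in B10 and 31.1, 55.4 and 48.7 in G7. The differences were -34.9 ± 6.78 (adjusted p = 0.00846) and -26.2 ± 6.78 (adjusted p = 0.0384), and the B10 call held under all 17 alternatives. The G7 call held under 7 of 17 and was lost without WT replicate 2, WT replicate 3, B10 replicate 3, G7 replicate 1 or G7 replicate 3 (adjusted p from 0.0605 to 0.124), and with ranks centred by chromosome (-21.3, adjusted p = 0.0841). The other, *Gdf5* -0.7 kb, next to the start site, was not called in either clone (adjusted p = 0.172 and 0.947), with means of 42.3 ± 5.03 in WT, 53.4 ± 1.43 in B10 and 43.1 ± 7.54 in G7 (SD, n = 3).

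*Inhba*, which encodes the activin A subunit, had the most regions of any member, 56, spread over a gene-poor stretch. *Inhba* -131.7 kb (chr13:15879217-15880154, intron of B230303A05Rik) stood at 42.3, 18.7 and 20.5 in WT, at 60.5, 62.9 and 60.1 in B10, and at 57.6, 47.6 and 49.3 in G7. It rose by 34.0 ± 6.50 in B10 (adjusted p = 0.0078, held under all 17 alternatives) and by 24.3 ± 6.50 in G7 (adjusted p = 0.0434, lost without any 1 of 8 libraries, all but WT replicate 1, with adjusted p from 0.0599 to 0.143, and at 0.0569 with ranks centred by chromosome). *Inhba* +208.0 kb (chr13:16222460-16223592, intergenic) was lower in G7 by -24.1 ± 4.78 (adjusted p = 0.0136, lost at 0.0544 without WT replicate 3), at 30.4, 32.7 and 36.1, against 50.7, 55.4 and 65.4 in WT and 65.0, 62.9 and 68.9 in B10. B10 and G7 differed there by 32.6 ± 4.78 (adjusted p = 0.00535), a call that held whichever library was left out. On log2 fold enrichment it was lost (adjusted p = 0.0592). *Inhba* +678.2 kb was gained in all 6 clone libraries at ranks from 9.71 to 56.9, *Inhba* -29.3 kb was gained in 5, and *Inhba* +285.2 kb was lost from WT replicates 2 and 3. In B10, 11 of the 56 regions were gained (19.6%, against 10.4% of all regions) and 1 was lost, and 2 of these gains and the loss were shared with G7.

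The other ligands gave fewer calls. *Tgfb3* +23.8 kb, in an intron of *Ttll5*, was gained in 5 clone libraries at ranks no higher than 16.5. *Inhbb* -1.4 kb was lost, with WT ranks of 0.505, 0.675 and 19.1. Both *Bmp7* regions that were lost, +181.5 kb and +166.6 kb, had peaks in WT replicates 2 and 3 at ranks from 26.9 to 38.9. *Bmp2* had 8 regions, none in all 9 libraries, with 3 gained in B10 (37.5%, against 10.4% of all regions) and 3 lost in G7 (37.5%, against 7.42%). No G7 library held a peak in 6 of these 8 regions.

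*Ltbp1* and *Ltbp2*, genes of the latent TGF-beta binding protein family, had 57 regions, 32 in all 9 libraries. In B10, 4 were higher (12.5%) and 1 lower (3.12%), and in G7, limma called 0 higher (3 at unadjusted p under 0.05) and 3 lower (9.38%). *Ltbp2* -5.8 kb (chr12:84805233-84806106, intron) rose in B10 to 63.5, 55.9 and 62.9 from 14.9, 4.51 and 19.6 in WT, by 47.8 ± 6.77 (adjusted p = 0.00203). In G7 it stood at 41.9, 25.2 and 20.4 (difference 16.2 ± 6.77, adjusted p = 0.165), and B10 exceeded G7 by 31.6 ± 6.77 (adjusted p = 0.0249). That difference between clones was lost without any 1 of B10 replicates 1, 2 and 3 and G7 replicates 2 and 3 (adjusted p from 0.0606 to 0.101). It was also lost on log2 fold enrichment (adjusted p = 0.155). *Ltbp1* +43.6 kb (chr17:75049196-75050130, intron) was also highest in B10, at 22.8, 37.4 and 30.1 in WT, 58.8, 58.6 and 49.1 in B10 and 23.9, 19.3 and 28.5 in G7. B10 and G7 differed there by 31.6 ± 5.62 (adjusted p = 0.012). The call was lost without B10 replicate 2 (adjusted p = 0.0536) and on log2 fold enrichment (adjusted p = 0.0817). *Ltbp1* -58.6 kb was lower in both clones by -7.06 ± 1.81 (adjusted p = 0.027) and -9.82 ± 1.81 (adjusted p = 0.0102), from ranks of 91.6, 87.8 and 89.1 in WT. The B10 call was lost without WT replicate 1, WT replicate 3 or any 1 B10 library (adjusted p from 0.0539 to 0.0819). On log2 fold enrichment both calls were lost (adjusted p = 0.936 in B10, where the sign turned, and 0.891 in G7, with the alternatives starting at 0.00713 and 0.00279).

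Receptors held 133 regions of 9 genes, 59 of them in all 9 libraries. In B10, 9 were higher (15.3%) and 2 lower (3.39%). In G7, limma called 0 higher (3 at unadjusted p under 0.05) and 4 lower (6.78%). The start sites of 8 receptor genes were open in every library, from *Bmpr1a* at a mean of 82.1 to *Tgfbr1*, the type I TGF-beta receptor, at 99.5. *Tgfbr3* +21.4 kb (chr5:107110288-107111488, intron), in the gene of the co-receptor betaglycan, was lower in both clones. Its ranks were 60.2, 61.8 and 63.6 in WT, 34.0, 40.4 and 38.7 in B10, and 41.9, 47.5 and 50.1 in G7, with differences of -24.2 ± 4.24 (adjusted p = 0.0054) and -15.4 ± 4.24 (adjusted p = 0.0485). The B10 call held under all 17 alternatives, while the G7 call held under 3 and was lost whichever 1 library was left out (adjusted p from 0.0526 to 0.154) and with ranks centred by chromosome (-12.1, adjusted p = 0.165).

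*Acvr2a*, a type II activin receptor gene, had 29 regions, reaching 1819.5 kb into the gene-poor stretch upstream of it. Its start site stayed between 83.5 and 89.6, but 12 of the 29 regions were gained in B10 (41.4%, against 10.4% of all regions) and 5 of these also in G7 (17.2%, against 5.69%). *Acvr2a* -385.4 kb (chr2:48427666-48428665, intron of Gm13481) had no WT peak and ranks of 52.0, 44.8 and 57.2 in B10 and 43.8, 37.9 and 42.6 in G7. *Acvr2a* -731.1 kb was likewise in all 6 clone libraries, at 69.3, 56.5 and 40.5 in B10 and 26.1, 19.3 and 3.45 in G7. The gains at -935.7 kb, -640.9 kb and -333.9 kb each missed 1 G7 library. *Acvr2a* -1819.5 kb was lost, from WT ranks of 6.88, 5.22 and 1.34. As these regions lie far from any start site, the assignment to *Acvr2a* rests on nearness alone. None of the 6 counts when start sites must lie within 50 kb. The 29 regions had a median distance of 460 kb, against 20.9 kb over all regions, and no background at like distance was computed. Shares of single genes, here and at *Inhba* and *Bmp2*, were not chosen by the rules at the end. Gains in B10 were also 5 of 10 regions at *Bambi* and 5 of 15 at *Id4*, but 0 of 23 at *Smad6* and 0 of 19 at *Ltbp2*.

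Of the other receptors, *Tgfbr2*, the type II TGF-beta receptor gene, lost 3 upstream regions in both clones. *Tgfbr2* -167.8 kb stood at 15.8, 14.2 and 3.28 in WT, and *Tgfbr2* -290.9 kb and -314.2 kb had peaks in WT replicates 2 and 3 alone at ranks from 20.5 to 32.5. *Acvr2b* -12.7 kb, in an intron of *Xylb*, was lost from WT ranks of 6.88, 22.9 and 13.3. *Acvr1* +16.4 kb, *Bmpr1a* +8.1 kb and *Bmpr1b* +119.8 kb were each lost from 2 WT libraries. *Bmpr1b* +219.3 kb, in an intron of *Unc5c*, was gained in 5 clone libraries at ranks from 24.2 to 62.4.

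The SMADs that carry the signal had 70 regions, 34 in all 9 libraries. In B10, limma called 0 higher (2 at unadjusted p under 0.05) and 4 lower (11.8%), and in G7, 1 higher and 1 lower (2.94% each). Of all 70, 0 were gained (against 2.97% of all regions) and 5 lost (7.14%, against 4.36%) in both clones. The start sites of *Smad1*, *Smad2*, *Smad3*, *Smad4* and *Smad5* stood at mean ranks from 85.9 to 96.8 and did not pass the test in either clone without the replicate block, while with it those of *Smad1*, *Smad4* and *Smad5* did in 1 clone or both, as given above. *Smad1* start was also called without WT replicate 1 (adjusted p = 0.0401 in B10 and 0.022 in G7) and in G7 with replicates 2 and 3 alone (adjusted p = 0.0278). *Smad5* -44.3 kb (chr13:56657946-56658743, intergenic), upstream of a gene for a BMP-activated SMAD, fell in both. Its ranks were 61.8, 69.5 and 69.3 in WT, 40, 29.5 and 42.5 in B10, and 33.7, 16.6 and 24.2 in G7. The differences were -29.6 ± 5.89 (adjusted p = 0.00941) and -42.0 ± 5.89 (adjusted p = 0.00324), and both held whichever library was left out. On log2 fold enrichment the B10 call was lost (adjusted p = 0.056, with the 17 alternatives starting at 0.00222).

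*Smad3* +8.9 kb, an intronic region named after its values were seen, had the largest fall of the SMADs in B10, from 57.9, 50.3 and 60.2 in WT to 5.8, 26.1 and 5.33 (-43.7 ± 6.52, adjusted p = 0.00255). It stood at 33.7, 38.6 and 41.6 in G7 (-18.2 ± 6.52, adjusted p = 0.112). *Smad2* accounted for 3 of the 5 losses, at +193.0 kb, +269.7 kb and +280.3 kb. The first had WT ranks of 26.3, 35.1 and 18.2, and the others a peak in 2 WT libraries each at ranks from 15.8 to 24.8. *Smad1* -101.8 kb and *Smad3* +6.2 kb had peaks in WT replicates 2 and 3 alone, at 34.1 and 37.8 and at 44.1 and 41.3. Many losses rested on 2 WT libraries. WT replicate 1 lacked a peak in 11 of the 20 regions lost in both clones, WT replicate 2 in 2 and WT replicate 3 in 1.

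Extracellular inhibitors had 39 regions, 19 in all 9 libraries, and the largest single fall of any role in B10. In B10, 2 were higher (10.5%) and 4 lower (21.1%), and in G7, 1 was higher (5.26%) and 3 lower (15.8%). The clearest change in both clones was at the start of *Grem1*, which encodes gremlin, a secreted trap for BMPs. The region (chr2:113756997-113758725) stood at 77.1, 75.5 and 72.4 in WT, at 39.0, 41.9 and 42.2 in B10, and at 55, 55.6 and 56 in G7. The 3 lines did not overlap. B10 was lower than WT by -34.0 ± 3.49 (adjusted p = 0.000506) and G7 by -19.5 ± 3.49 (adjusted p = 0.00906). B10 was below G7 by -14.5 ± 3.49 (adjusted p = 0.0395), a difference that was not followed through the alternatives. The B10 call held under all 17 alternatives and the G7 call under 16, since on log2 fold enrichment it was lost (adjusted p = 0.523, with the others starting at 0.00165). In G7 the difference shrank to -14.6 with ranks centred by chromosome, beside a median shift of -3.90 on chromosome 2. This window, on the plus strand of chr2:113757512-113757811 inside the first part of the gene, carries the BMP response element in capitals.
Grem1 start: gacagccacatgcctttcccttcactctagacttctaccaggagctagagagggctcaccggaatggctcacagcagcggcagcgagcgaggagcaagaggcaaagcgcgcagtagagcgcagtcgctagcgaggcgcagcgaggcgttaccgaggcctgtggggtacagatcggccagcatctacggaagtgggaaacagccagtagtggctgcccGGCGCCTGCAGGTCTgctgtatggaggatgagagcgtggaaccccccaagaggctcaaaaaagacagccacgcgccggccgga
Downstream of *Grem1*, a region at +118.9 kb (chr2:113638968-113639771, intron of *Fmn1*) was gained in all 6 clone libraries, at ranks of 55, 61 and 40.5 in B10 and 38.0, 43.4 and 25.6 in G7. It was the only one of the 14 *Grem1* regions gained in both clones.

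*Nog*, whose product noggin blocks BMP ligands, showed the largest difference between the clones. *Nog* +3.5 kb (chr11:89297552-89298818, intergenic) had ranks of 63.1, 73.7 and 70.0 in WT, 2.19, 24.0 and 12.8 in B10, and 58.7, 57.1 and 61.6 in G7. B10 fell by -55.9 ± 5.94 (adjusted p = 0.000572), the largest fall of any member region, while G7 differed from WT by -9.81 ± 5.94 (adjusted p = 0.337). B10 minus G7 was -46.1 ± 5.94 (adjusted p = 0.00291), and the call held whichever library was left out. It was lost on log2 fold enrichment (adjusted p = 0.158, with the 15 alternatives starting at 0.000317). The start-site region of *Nog* (chr11:89302264-89303166) was in G7 alone, as given above. The centre of *Nog* +3.5 kb is printed from the plus strand of chr11:89298178-89298477, and holds none of the motifs searched.
Nog +3.5 kb: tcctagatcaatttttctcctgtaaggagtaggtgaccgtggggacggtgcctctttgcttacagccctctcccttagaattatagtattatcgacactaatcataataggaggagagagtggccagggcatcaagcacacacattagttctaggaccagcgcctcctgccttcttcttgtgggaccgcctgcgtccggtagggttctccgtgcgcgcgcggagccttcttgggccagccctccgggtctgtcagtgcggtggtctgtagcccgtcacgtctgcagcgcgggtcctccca

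*Fst* encodes follistatin, which binds activins. *Fst* +7.5 kb (chr13:114446742-114447685, intergenic, beyond the end of the gene) rose from 67.6, 70.9 and 63.8 in WT to 88.4, 90.0 and 86.4 in B10 and 84.1, 83.3 and 79.1 in G7. The differences were 20.9 ± 2.41 (adjusted p = 0.000798) and 14.8 ± 2.41 (adjusted p = 0.00609), and both held under every left-out library. Both were lost on log2 fold enrichment (adjusted p = 0.0579 and 0.197, with the other alternatives starting at 3.12e-05 and 0.000291). Inside the gene, *Fst* -1.0 kb, at the start of another transcript and named after its values were seen, went the other way in B10, from 44.7, 31.1 and 35.3 in WT to 5.84, 9.97 and 7.84 (-29.1 ± 5.80, adjusted p = 0.0094), and stood at 23, 33.3 and 20.2 in G7 (adjusted p = 0.247). *Chrd*, the gene of the BMP antagonist chordin, had 1 region, its start site, at ranks from 78.8 to 83.5 in the 9 libraries and not called in either clone (adjusted p = 0.975 and 0.513). The regions of the extracellular inhibitors therefore did not move together. *Grem1* start fell and *Fst* +7.5 kb rose in both clones, and *Nog* +3.5 kb fell in B10. Regions of the same gene also differed. *Grem1* +118.9 kb was gained in both clones, *Fst* -1.0 kb fell in B10, and *Nog* start had peaks in G7 alone.

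**Figure D4:**
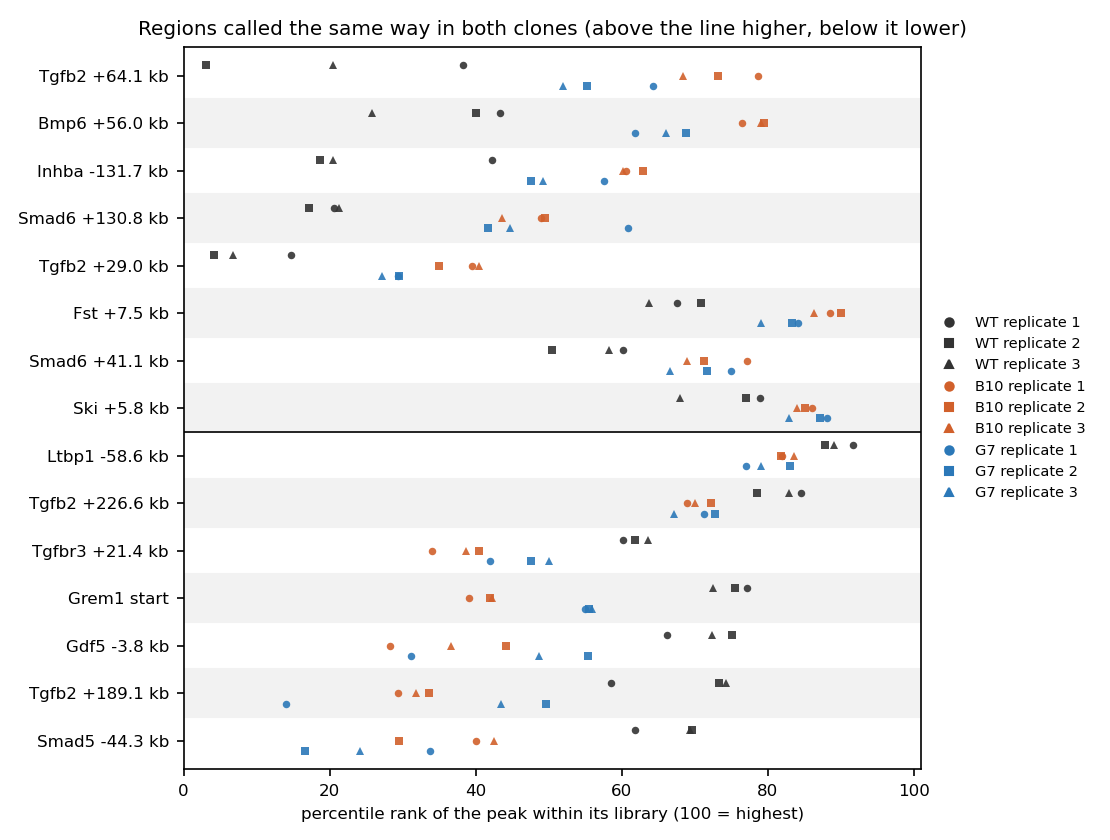
Percentile rank in each library (horizontal axis, 100 the highest) of the 15 member regions that limma called the same way in both clones. Each point is 1 library, the regions above the line are higher than in WT and those below it lower, for instance *Grem1* start at 72.4 to 77.1 in WT and 39 to 56 in the clones.

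Inhibitors inside the cell and at its membrane had 122 regions, 64 in all 9 libraries. In B10, 8 were higher (12.5%) and 2 lower (3.12%), and in G7, limma called 4 higher (6.25%) and 0 lower (2 at unadjusted p under 0.05). In both clones 3 were higher (4.69%, against 3.81% of all tested). The strongest start-site regions of *Smurf1* and *Smurf2*, ubiquitin ligases that act on SMADs and receptors, stood at mean ranks of 98.2 and 98.1, and those of the SMAD corepressors *Ski* and *Skil* at 95.9 and 95.3. None of these 4 passed the test in either clone. *Smad6*, whose product blocks BMP SMADs, had 2 regions higher in both clones. *Smad6* +130.8 kb (chr9:63890509-63891202, intergenic) rose from 20.6, 17.2 and 21.2 in WT to 49.0, 49.5 and 43.6 in B10 and 60.8, 41.6 and 44.6 in G7. The differences were 27.7 ± 5.76 (adjusted p = 0.0113) and 29.3 ± 5.76 (adjusted p = 0.0132), and both calls held under all 17 alternatives, which among the named regions was so in both clones for this one alone.

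*Smad6* +41.1 kb, in an intron of the gene, rose by 16.2 ± 4.04 (adjusted p = 0.0243) and 14.8 ± 4.04 (adjusted p = 0.0466), from ranks of 60.2, 50.4 and 58.2 in WT. The B10 call was lost without WT replicate 2 or 3 or B10 replicate 1 or 2 (adjusted p from 0.0562 to 0.0851), and the G7 call without any 1 of 8 libraries, all but WT replicate 1 (adjusted p from 0.0517 to 0.142). On log2 fold enrichment both were lost (adjusted p = 0.169 in B10 and 0.462 in G7). *Ski* +5.8 kb, in an intron of *Ski*, rose by 10.4 ± 2.77 (adjusted p = 0.0317) and 11.4 ± 2.77 (adjusted p = 0.0307), from 78.9, 77.0 and 68.0 in WT. These calls were lost without WT replicate 2 or 3 or any 1 library of the clone tested (adjusted p from 0.0505 to 0.0916 over both), and in G7 also without B10 replicate 2 or 3. Both *Ski* calls were also lost on log2 fold enrichment (adjusted p = 0.326 in B10 and 0.143 in G7) and with no variance trend (0.0614 and 0.0622). Gained in all 6 clone libraries were *Smad7* +94.8 kb, in an intron of *Ctif*, at ranks from 7.01 to 24.7, and *Bambi* +1.2 kb, in an intron of *Bambi*, at ranks from 9.91 to 25.8. *Bambi* encodes a membrane pseudoreceptor that blocks TGF-beta family signals, and its start site stayed between 90.9 and 94.2. *Smurf1* -14.2 kb was lost from WT replicates 2 and 3.

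The targets *Id1* to *Id4* encode inhibitors of basic helix-loop-helix factors and had 54 regions, 31 in all 9 libraries. In B10, limma called 1 higher (3.23%) and 0 lower (6 and 1 at unadjusted p under 0.05), and in G7, 1 higher and 1 lower (3.23% each). B10 was above G7 at 4 of the 31 (12.9%, against 4.21% of all tested), 3 of them regions of *Id1* and 1 of *Id4*. The median shift from WT on chromosome 2, which holds *Id1*, was -0.245 in B10 and -3.90 in G7. On chromosome 13, which holds *Id4*, it was 4.92 and 0.821. The part of these shifts in the 4 differences was not tested. *Id1* start stood at 92.5, 95.1 and 92.9 in WT, 93.7, 94.2 and 91.9 in B10, and 89.5, 90.2 and 88.8 in G7. G7 was lower by -3.97 ± 0.92 (adjusted p = 0.0255), which turned to 0.93 with ranks centred by chromosome and was lost without WT replicate 2, WT replicate 3, G7 replicate 1 or G7 replicate 3 (adjusted p from 0.0586 to 0.0902). *Id2* start stood between 87.0 and 93.4 and *Id3* start between 88.9 and 93.6, and neither passed the test in a clone without the replicate block, with which *Id2* start was called in G7. *Id4* start rose in B10 as given above, from 85.5, 80.9 and 83.9 in WT to 91.5, 90.6 and 89.7, and stood at 85.5, 87.5 and 86.3 in G7. The regions with a BMP response element near *Id2* and *Id3* did not pass the test either. *Id1* +2.1 kb, which also holds one, stood at 70.5, 72.7 and 72.3 in WT, 80.8, 76.4 and 79.0 in B10 and 68.2, 68.7 and 65.1 in G7, and differed between the clones by 11.4 ± 2.56 (adjusted p = 0.0304). *Id2* -1.4 kb ranged from 75.8 to 82.9 and *Id3* -2.3 kb from 80.0 to 86.4 over the 9 libraries, with adjusted p from 0.323 to 0.882 over both clones.

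Of the 54 target regions, 2 were gained (3.7%, against 2.97% of all regions) and 1 was lost (1.85%, against 4.36%) in both clones. *Id4* +12.4 kb (chr13:48273616-48274073), at the start of the long non-coding gene A330048O09Rik, had no WT peak and ranks of 40.5, 31.6 and 48.1 in B10 and 34.2, 21.7 and 36.1 in G7. *Id2* -92.1 kb (chr12:25189203-25189779) had WT ranks of 20.2, 24.3 and 21.6 and no peak in a clone. *Id2* -171.8 kb was gained in 4 clone libraries at ranks no higher than 6.23.

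**Figure D5:**
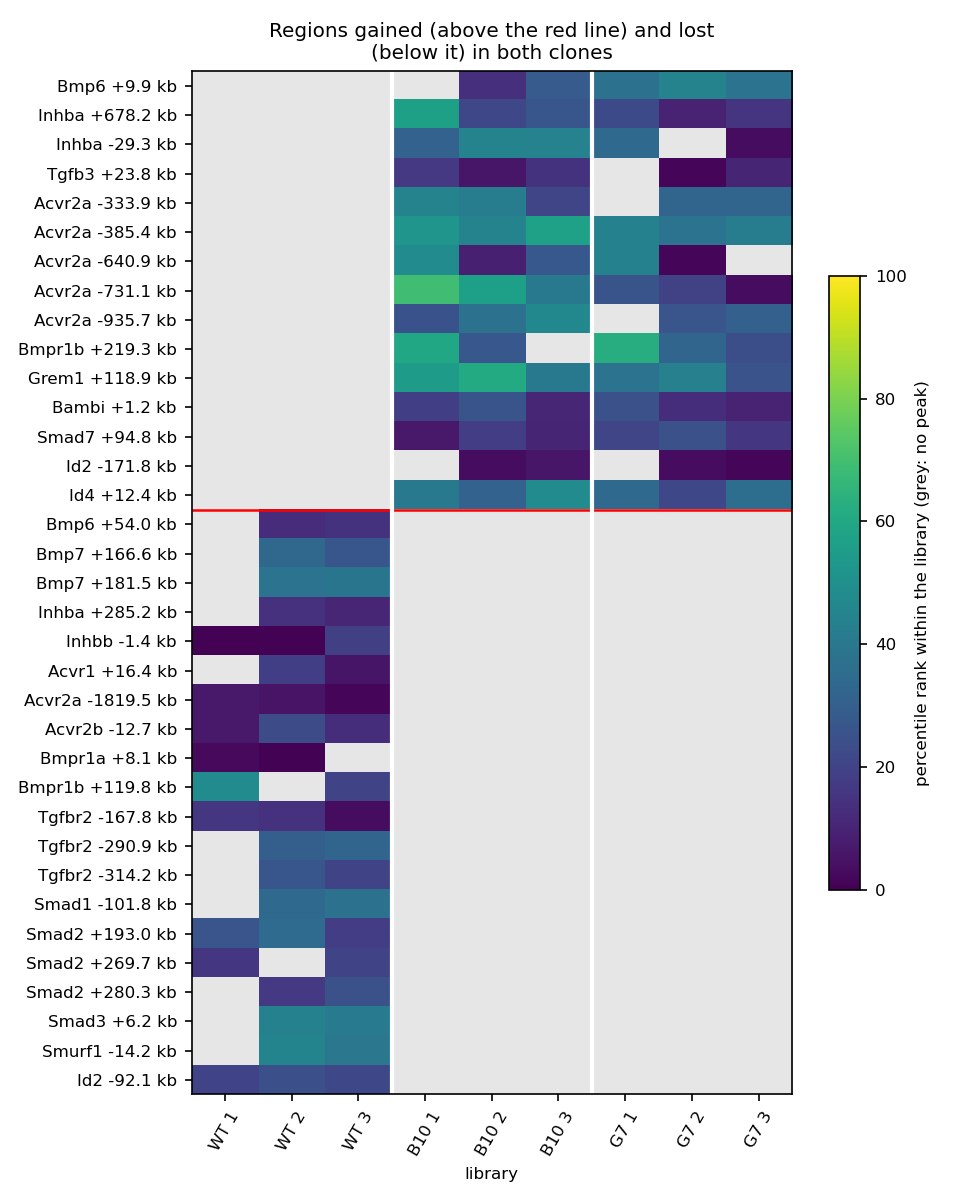
Percentile rank in each library (columns) of the 15 member regions gained and the 20 lost in both clones (rows), with grey for no peak. The gained regions stand above the red line and the lost below it; gained peaks rank from 1.24 to 69.3 and lost ones from 0.495 to 48.3.

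Over the 15 gained regions the median rank of a peak was 27.5, and over the 20 lost ones 20.4. Of the gained, 7 were in all 6 clone libraries and kept their call whichever library was left out. Of the lost, 6 were in all 3 WT libraries and kept theirs. The rule fixes this outcome, since a region with a peak in 3 of 3 libraries still has 2 after any drop. At replicates 2 and 3 alone, 12 of the 15 and 17 of the 20 kept the call. Most lay far from their gene: 10 of the 15 and 14 of the 20 were over 50 kb from the start site.

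The centres of the regions with the steadiest changes in both clones, beside *Grem1* start, follow, with the largest rise (*Tgfb2*), a gain (*Id4*) and a loss (*Id2*). They are shown so that the DNA behind these values can be read. All are from the plus strand, and capitals mark an AP-1 site, which only the *Id2* window holds. The windows are chr13:38450767-38451066 (*Bmp6*), chr13:114447258-114447557 (*Fst*), chr9:63890766-63891065 (*Smad6*), chr13:56658115-56658414 (*Smad5*), chr1:186641167-186641466 (*Tgfb2*), chr13:48273791-48274090 (*Id4*) and chr12:25189197-25189496 (*Id2*).
Bmp6 +56.0 kb: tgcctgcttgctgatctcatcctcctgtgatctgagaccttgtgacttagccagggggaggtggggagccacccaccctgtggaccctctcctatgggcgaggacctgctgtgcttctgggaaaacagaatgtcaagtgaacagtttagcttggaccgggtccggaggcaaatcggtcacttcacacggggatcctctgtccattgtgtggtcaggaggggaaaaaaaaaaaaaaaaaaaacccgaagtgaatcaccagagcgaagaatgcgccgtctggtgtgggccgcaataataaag
Fst +7.5 kb: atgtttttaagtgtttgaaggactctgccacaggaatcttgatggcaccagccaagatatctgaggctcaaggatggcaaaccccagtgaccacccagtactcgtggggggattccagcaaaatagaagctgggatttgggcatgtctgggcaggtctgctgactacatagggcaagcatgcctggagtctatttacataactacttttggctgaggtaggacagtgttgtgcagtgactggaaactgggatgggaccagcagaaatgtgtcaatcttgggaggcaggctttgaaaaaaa
Smad6 +130.8 kb: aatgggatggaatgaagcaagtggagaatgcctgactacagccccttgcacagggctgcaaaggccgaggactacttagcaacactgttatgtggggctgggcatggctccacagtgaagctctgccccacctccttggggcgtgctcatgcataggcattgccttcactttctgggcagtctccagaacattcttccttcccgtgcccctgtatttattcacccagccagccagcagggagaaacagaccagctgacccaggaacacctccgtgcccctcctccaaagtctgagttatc
Smad5 -44.3 kb: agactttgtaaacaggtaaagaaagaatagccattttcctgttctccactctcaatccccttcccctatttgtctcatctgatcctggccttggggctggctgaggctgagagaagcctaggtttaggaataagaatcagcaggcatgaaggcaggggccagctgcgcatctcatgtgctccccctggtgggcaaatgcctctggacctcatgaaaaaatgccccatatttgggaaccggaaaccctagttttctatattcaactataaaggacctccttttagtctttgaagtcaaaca
Tgfb2 +64.1 kb: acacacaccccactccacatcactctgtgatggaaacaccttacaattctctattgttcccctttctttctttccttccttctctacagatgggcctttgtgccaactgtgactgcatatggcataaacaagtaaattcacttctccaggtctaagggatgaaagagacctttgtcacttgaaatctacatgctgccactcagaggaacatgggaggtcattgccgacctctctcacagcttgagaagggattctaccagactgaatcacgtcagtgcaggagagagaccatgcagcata
Id4 +12.4 kb: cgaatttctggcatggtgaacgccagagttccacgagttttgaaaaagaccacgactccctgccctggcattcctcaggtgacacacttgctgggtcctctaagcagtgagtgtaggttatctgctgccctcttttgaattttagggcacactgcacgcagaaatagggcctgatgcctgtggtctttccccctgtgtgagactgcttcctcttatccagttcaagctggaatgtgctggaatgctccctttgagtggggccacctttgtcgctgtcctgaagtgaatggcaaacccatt
Id2 -92.1 kb: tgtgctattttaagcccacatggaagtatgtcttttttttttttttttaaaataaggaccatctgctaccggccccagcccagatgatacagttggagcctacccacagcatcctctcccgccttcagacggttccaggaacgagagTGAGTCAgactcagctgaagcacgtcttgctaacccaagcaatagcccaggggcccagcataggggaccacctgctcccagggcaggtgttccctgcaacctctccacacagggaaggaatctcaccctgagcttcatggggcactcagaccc

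Between the clones, 24 member regions were higher in B10 than in G7 (7.36%, against 4.21% of all tested) and 8 lower (2.45%, against 2.39%). The *Nog*, *Inhba*, *Ltbp1*, *Ltbp2* and *Tgfb2* regions described above were the 5 largest of those called. With the replicate block 82 regions differed in place of 32, and with replicates 2 and 3 alone 57 of the 362 member regions then tested. On log2 fold enrichment 2 did. Without G7 replicate 3 there were 5 and without G7 replicate 2 there were 16. Without B10 replicate 1, 2 or 3 the count was 12, 8 and 8.

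Left-out libraries moved the counts against WT too. The B10 count of higher regions fell to 23, 18 and 24 without B10 replicate 1, B10 replicate 2 or WT replicate 3, and that of lower regions to 12, 11 and 12 without B10 replicate 1, B10 replicate 3 or WT replicate 3. In G7, higher regions numbered 20 without WT replicate 1, 3 without G7 replicate 2, and 5 or 6 without any 1 of the others except B10 replicate 1. Lower regions in G7 numbered 12 without B10 replicate 3, 8 without G7 replicate 1, 7 without G7 replicate 3 or WT replicate 2, and 6 without WT replicate 3. Regions higher in both numbered 15 without WT replicate 1 and from 3 to 5 without any 1 of the other 8 libraries. Regions lower in both numbered 2 without B10 replicate 3 or WT replicate 3, 3 without B10 replicate 1, G7 replicate 1 or G7 replicate 3, and 4 without WT replicate 2.

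Other genes of the pathway, from a list of 49 that holds further ligands, receptors, antagonists and target genes, gave 398 regions at 47 genes, 179 of them in all 9 libraries. In B10, 19 of these were higher (10.6%, against 11.0% of all tested) and 6 lower (3.35%, against 5.37%), and in G7, 10 were higher (5.59%, against 5.39%) and 9 lower (5.03%, against 4.82%). In both clones, 7 of the 179 were higher (3.91%, against 3.81%) and 1 lower (0.559%, against 1.66%). Of the 398, 8 were gained (2.01%, against 2.97%) and 15 lost (3.77%, against 4.36%) in both.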

How the data were processed

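ATAC-seq (Omni-ATAC) was made from 9 libraries, 3 of WT cells and 3 of each KO clone, which carried separate guides. Per the labels and the study's methods, reads were trimmed with Rfastp, aligned to mm10 with Rsubread, and peaks were called per library with MACS2 on paired fragments. The version of MACS2 is not given in the sources used here, and although peak names mention an input, whether one was used is not stated. The deposited lists give each peak a fold enrichment, which the authors' peak caller made relative to its background estimate, and a −log10 q value, cut by the authors at a q of 0.05. Replicates were not pooled, and no counts were used here, so that a missing peak can reflect depth, and no interval for depth can be given.

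Peaks of the 9 lists sharing at least 1 bp were merged, and regions with a peak in 2 or more of the 3 libraries of any line were kept. Each went to the gene of the nearest protein-coding start site (GENCODE M21). Ranks of −log10 q within a library were tested with limma 3.58.1 (R 4.3.3), with a mean-variance trend and one fit of all 9 libraries, and called at an adjusted p under 0.05. The study itself tested read counts, which the lists do not hold. Tables and figures were made with Python 3.11.15, pandas 2.3.3, numpy 2.4.6 and matplotlib 3.10.9, and the limma step was tested on simulated data.

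Libraries of the same replicate number deviated together in every pair of lines (correlation of deviations from the line means 0.3136 to 0.6638, against -0.5608 to 0.311 for different numbers), so the replicate block pairs them by number. This comes from the data, since the labels give only the numbers. The main fit does not use the pairing. Replicates 2 and 3 were weakly told apart: a replicate 2 and a replicate 3 of different lines correlated at 0.2101 to 0.311. The named regions were each member's start-site region, every region gained or lost in both clones, up to 5 per role called the same way in both, the 5 largest differences between clones among those called, and the *Id1* to *Id4* start sites. The members, lists and rules were chosen with earlier results of these data known. Alternatives covered the peak threshold, the presence rule, the rank scale, chromosome centring, the replicate block, distance and left-out libraries.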

Additional observations from a re-analysis of the deposited data

Results flagged for a closer look

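The clones differed from each other, by limma's test of B10 minus G7 at an adjusted p under 0.05, at 10 of the named regions. B10 ranked above G7 at *Inhba* +208.0 kb (32.5593 rank points), *Ltbp1* +43.6 kb (31.6009), *Ltbp2* -5.8 kb (31.5938), *Tgfb2* +138.0 kb (28.948), *Smad7* start (5.2157), *Bmpr2* start (3.9507) and *Id1* start (3.7522). B10 ranked below G7 at *Nog* +3.5 kb (-46.1329), *Grem1* start (-14.4688) and *Acvr2b* start (-7.6296). Each clone is 1 line with its own guide, so that guide, clone and culture cannot be told apart in these differences. For the start-site regions in this list, B10 minus G7 was not followed through the alternatives, chromosome centring included. The median shift from WT on chromosome 2 (*Grem1* and *Id1*) was -0.245 in B10 and -3.90 in G7. On chromosome 1 (*Bmpr2*) it was 0.352 and -2.39. The part of these shifts in the start-site differences was not tested.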

How the results depend on the processing

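Against the main counts of 70, 28 and 15 member regions gained in B10, G7 and both clones and 41, 41 and 20 lost, asking for 3 of 3 against 0 of 3 libraries left 35, 15 and 7 gained and 11, 14 and 6 lost, by its stricter construction. Start sites within 50 kb left 21, 16 and 5 gained, 18, 13 and 6 lost, 21, 4 and 4 higher, 10, 10 and 4 lower in B10, G7 and both, and 18 that differed between clones, since it holds fewer regions. With the replicate block, which uses the pairing, 44 were gained in G7 and 23 in both, 72, 28 and 19 were higher, 43, 39 and 20 lower, and 82 differed between clones. Replicates 2 and 3 alone, with 362 member regions tested, gave 69, 24 and 17 higher, 37, 35 and 15 lower and 57 between clones. Rank 0 where no peak was found took in all 658 member regions in place of 326. It gave 85, 26 and 13 higher, 38 lower in B10, 11 lower in both and 72 between clones. The added regions were kept through the lines that hold their peaks, so that part of their differences is set by that rule. On log2 fold enrichment, limma called 16, 3 and 3 higher, 12, 3 and 0 lower (13 lower in both at unadjusted p under 0.05) and 2 between clones. Regions lower in G7 numbered 11 with equal numbers of peaks, 12 with no variance trend and 8 with ranks centred by chromosome, which also gave 3 lower in both and 20 between clones. The causes of these moves were not tested.

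Leaving out 1 library at a time gave 45 to 103, 16 to 53 and 10 to 35 gained, 14 to 55, 17 to 59 and 7 to 25 lost, 18 to 57, 3 to 20 and 3 to 15 higher, 11 to 22, 6 to 18 and 2 to 7 lower in B10, G7 and both, and 5 to 41 between clones. For the 43 named differences that were called, 557 recomputed values kept the call, 162 fell short with the same sign and 2 turned: *Id1* start in G7 was 0.9347 with ranks centred by chromosome, and *Ltbp1* -58.6 kb in B10 was 0.0235 on log2 fold enrichment. On log2 fold enrichment 27 of the 43 calls were lost, with ranks centred by chromosome 9, and with the replicate block 0. For the 70 that were not called, 15 of 1187 recomputed values passed the threshold, 7 of them with the replicate block, and 94 turned in sign without passing it. Without counts, a region near the peak threshold cannot be told from one missed for depth.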
